A study of Mus musculus with 40 samples.

Results

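The regions described here were stretches of the mouse genome whose cloned fragments were recovered from YFP-positive cells at the haematopoietic progenitor (HP) stage of blood development in culture and from YFP-positive cells at no earlier stage. They were chosen by the measured fragment lists themselves. All fragments of 40 libraries that overlapped by 1 bp or more were merged into 75060 regions. A region was kept as HP-only when its Low, Medium and High HP libraries held 2 or more different fragments and the same gates of the other 4 stages held none. The rule returned 535 regions, or 0.713% of all, and used the gate, the stage and the fragment positions. The presence of these regions in HP and their absence elsewhere is therefore a description and not a finding.

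The fragments came from a reporter screen in HM-1 mouse embryonic stem (ES) cells of strain 129/ola, in which open-chromatin fragments cut by the Tn5 transposase were placed in front of the HSP68 minimal promoter and a Venus-YFP gene. Each cassette was inserted at the Hprt locus, which is not functional in HM-1 cells and is repaired by the insertion. All groups therefore carried the same cell line, promoter and insertion site. Plasmid libraries from 5 stages were mixed, so that a fragment could be carried into any stage whichever stage it had been cut from. The study's methods also describe a filter that kept fragments with an open-chromatin peak at the matching stage. Whether the lists used here had passed it is not stated, so absence from a stage's lists may not be a reading of the reporter. Transfected pools were kept as ES cells or differentiated in embryoid bodies and blast culture, and no added agent was compared. FLK1+ haemangioblasts (HB), KIT+ TIE2+ CD41- early haemogenic endothelium (HE1), KIT+ TIE2+ CD41+ later haemogenic endothelium (HE2) and KIT+ TIE2- CD41+ HP were sorted. Each stage was divided by YFP into Negative, Low, Medium and High gates in 2 replicates. The Negative gate was set with cells whose cassette had the minimal promoter and no fragment. The sorts were pools of many integrations rather than clones, and no RNA was measured, so the identity of HP cells rests on their surface markers.

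In the embryo and in this culture, blood progenitors arise from haemogenic endothelium, flat cells of the vessel wall that round up, lose endothelial markers and enter the blood. RUNX1 is required for this step, and PU.1, C/EBP, GATA, ETS and AP-1 factors bind many blood cell enhancers. An enhancer is a stretch of DNA that raises transcription from a promoter at a distance, and many are used in 1 cell type or stage.

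The HP libraries held 1630 to 18294 fragments, within the range of 654 to 51146 over all libraries. Replicate 1 of HP had 39671 positive fragments and replicate 2 had 5641. A fragment stands once in a list however often it was read, so its read depth is unknown, and the spread between 2 replicates of 1 cell line is not one between animals. The rule with 2 or more fragments gave 3118 regions at HE1, 717 at HB, 520 at HE2 and 517 at ES, from 36551 to 136536 different positive fragments a stage. After every stage was thinned to 36551 fragments, HP had 606.8 ± 10.5 (SD, 20 draws) regions and the other stages had means of 552.9 to 707.8.

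The sequences below are those of fragments that carry the contrasts among HP-only regions. All were read 5′ to 3′ from the plus strand of GRCm38 (mm10), and each region is named by the nearest transcription start. In the first group, capitals mark a long repeat of 1 pair of bases at or near an end of the fragment. These regions counted as HP-only through fragments that differed in where they began or ended within or beside the repeat.

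Ubxn2b member, chr4:5980399-5980598: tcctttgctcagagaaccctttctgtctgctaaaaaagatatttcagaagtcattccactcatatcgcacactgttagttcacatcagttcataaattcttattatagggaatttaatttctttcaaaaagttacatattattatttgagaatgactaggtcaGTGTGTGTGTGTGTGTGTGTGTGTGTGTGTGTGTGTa
Prkcb member, chr7:122361425-122361669: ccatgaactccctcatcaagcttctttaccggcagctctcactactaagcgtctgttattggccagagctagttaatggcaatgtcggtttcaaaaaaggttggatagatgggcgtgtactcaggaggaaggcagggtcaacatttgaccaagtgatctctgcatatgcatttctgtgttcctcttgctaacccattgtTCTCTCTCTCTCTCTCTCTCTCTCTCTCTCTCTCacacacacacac
Nmd3 member, chr3:69683227-69683339: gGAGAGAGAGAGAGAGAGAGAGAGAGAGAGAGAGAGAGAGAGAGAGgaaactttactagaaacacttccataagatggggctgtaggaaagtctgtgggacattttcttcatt

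In the second group, capitals mark the bases covered by the most HP fragments of the region. The Fli1 member is shown because its 3 fragments were almost the same stretch, whereas the Zfp36, Hivep2 and Lmod3 members were each covered by fragments with different ends. The Zfp36 sequence is the central 300 bases of a fragment of 343 bp.

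Fli1 member, chr9:32475202-32475491: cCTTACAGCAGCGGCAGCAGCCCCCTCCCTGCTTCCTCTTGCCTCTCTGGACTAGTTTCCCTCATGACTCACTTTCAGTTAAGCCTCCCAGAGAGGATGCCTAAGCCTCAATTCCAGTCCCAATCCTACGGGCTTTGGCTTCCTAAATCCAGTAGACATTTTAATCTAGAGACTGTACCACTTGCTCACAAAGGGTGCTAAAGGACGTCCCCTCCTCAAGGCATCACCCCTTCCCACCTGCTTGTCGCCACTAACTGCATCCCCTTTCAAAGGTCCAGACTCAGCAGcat
Zfp36 member, chr7:28381116-28381415: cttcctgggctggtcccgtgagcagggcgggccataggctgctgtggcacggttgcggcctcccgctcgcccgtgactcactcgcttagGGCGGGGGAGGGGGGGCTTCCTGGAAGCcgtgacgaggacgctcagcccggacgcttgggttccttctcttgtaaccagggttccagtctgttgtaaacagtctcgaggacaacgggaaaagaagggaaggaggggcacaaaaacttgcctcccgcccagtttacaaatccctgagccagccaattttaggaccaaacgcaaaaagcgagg
Hivep2 member, chr10:13967891-13968134: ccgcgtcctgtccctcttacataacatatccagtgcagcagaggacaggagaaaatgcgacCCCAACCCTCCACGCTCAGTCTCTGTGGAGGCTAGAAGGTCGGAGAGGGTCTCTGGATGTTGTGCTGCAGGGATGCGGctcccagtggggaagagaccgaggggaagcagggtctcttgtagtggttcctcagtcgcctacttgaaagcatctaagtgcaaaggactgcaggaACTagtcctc
Lmod3 member, chr6:97353974-97354207: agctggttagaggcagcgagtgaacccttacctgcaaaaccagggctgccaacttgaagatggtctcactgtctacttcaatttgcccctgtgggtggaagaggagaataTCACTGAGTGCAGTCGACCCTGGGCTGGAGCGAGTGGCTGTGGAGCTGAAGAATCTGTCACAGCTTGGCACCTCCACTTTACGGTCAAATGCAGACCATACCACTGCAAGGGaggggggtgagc

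In the third group, capitals mark matches to motifs of blood factors: a RUNX motif in the Rnf19b member, a C/EBP motif in the Neurl1b member, RUNX and C/EBP motifs 1 base apart in the Tpst2 member, and a PU.1 motif in the Notch1 member. Rnf19b, Neurl1b and Tpst2 were among the regions read in both replicates.

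Rnf19b member, chr4:129032907-129033032: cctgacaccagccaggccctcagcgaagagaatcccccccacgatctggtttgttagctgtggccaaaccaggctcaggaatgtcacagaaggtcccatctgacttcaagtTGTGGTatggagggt
Neurl1b member, chr17:26421722-26421978: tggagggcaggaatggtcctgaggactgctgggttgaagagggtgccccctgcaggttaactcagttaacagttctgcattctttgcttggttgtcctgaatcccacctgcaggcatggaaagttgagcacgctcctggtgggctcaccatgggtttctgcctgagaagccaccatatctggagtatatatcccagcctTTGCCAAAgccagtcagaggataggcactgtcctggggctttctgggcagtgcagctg
Tpst2 member, chr5:112280335-112280506: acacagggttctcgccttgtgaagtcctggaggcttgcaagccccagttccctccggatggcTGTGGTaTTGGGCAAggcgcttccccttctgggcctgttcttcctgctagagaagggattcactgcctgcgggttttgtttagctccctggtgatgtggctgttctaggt
Notch1 member, chr2:26492906-26493074: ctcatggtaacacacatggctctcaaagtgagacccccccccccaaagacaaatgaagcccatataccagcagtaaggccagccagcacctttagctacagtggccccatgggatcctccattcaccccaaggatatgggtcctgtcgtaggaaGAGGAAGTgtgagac

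The 535 regions held 1306 different positive HP fragments. Most were at the threshold: 411 had 2 fragments, 72 had 3, 30 had 4 and 22 had 5 or more, up to 17. Regions were 73 to 836 bp wide with a median of 245 bp. Just outside the rule lay 3196 regions with 1 HP fragment and none elsewhere, whose median width was 153.5 bp against 240 bp for the 411 regions just inside. A further 170 regions had 2 HP fragments and 1 positive fragment of another stage, and 71 had 3 or more HP fragments and 1 elsewhere. Of those 170 regions, 82.9% came from replicate 1 alone, against 51.3% of the 411.

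The replicates contributed nearly equal numbers of regions from unequal numbers of fragments. Replicate 1 alone gave 266 regions, replicate 2 alone gave 260, and 9 regions had positive HP fragments of both. In replicate 1 the HP-only regions held 87 fragments of the Low library (1.79%), 304 of the Medium library (1.66%) and 229 of the High library (1.39%). In replicate 2 they held 81 fragments of Low (3.66%), 257 of Medium (15.8%) and 351 of High (19.5%). The shares in all 3 replicate 2 libraries lay above all 3 of replicate 1. Pooled over the gates, 1.56% of replicate 1 positive fragments and 12.2% of replicate 2 positive fragments lay in HP-only regions.

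**Figure D1:**
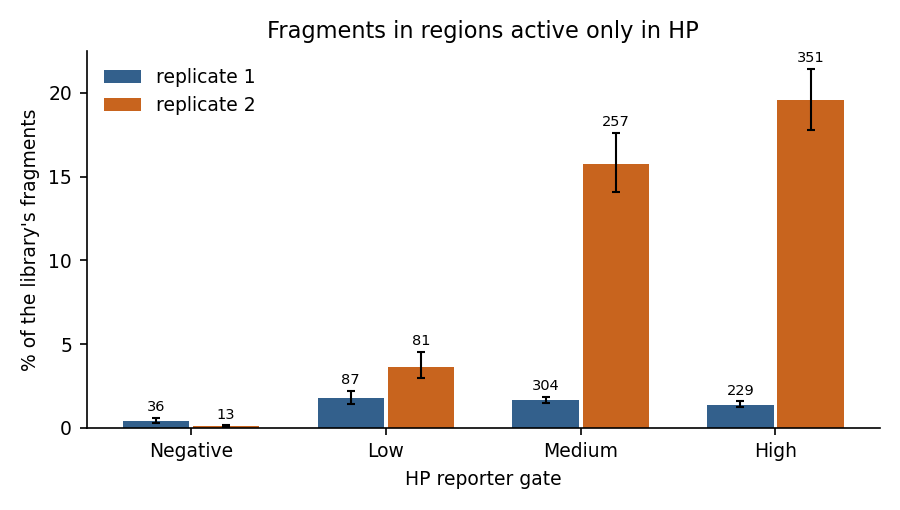
Share of each HP library's fragments that lay in HP-only regions, in percent, by YFP gate and replicate; error bars are 95% Wilson intervals and the number over a bar is the count of fragments. The replicate 2 Medium and High libraries stand at 15.8% and 19.5%, while the positive libraries of replicate 1 stand between 1.39% and 1.79%.

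The fragments of the 2 replicates differed in how they overlapped. Among the 211 replicate 1 regions with exactly 2 fragments, 11 had both fragment ends within 5 bp of each other, and the median gap was 52 bp between the starts and 56 bp between the ends. Among the 194 such regions of replicate 2, both ends lay within 5 bp in 179 (92.3%), and in 170 the gaps at the 2 ends added up to 2 bp or less. At least 1 end was identical in 192 of the 194. Merging fragments of a stage whose ends both lay within 5 bp reduced the 687 replicate 2 fragments in HP-only regions to 341 and the 620 of replicate 1 to 597. The same step removed 28.3% of replicate 2 fragments in regions shared with another stage and 13.0% of all its positive HP fragments. For replicate 1 it removed 2.67% and 2.36%.

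**Figure D2:**
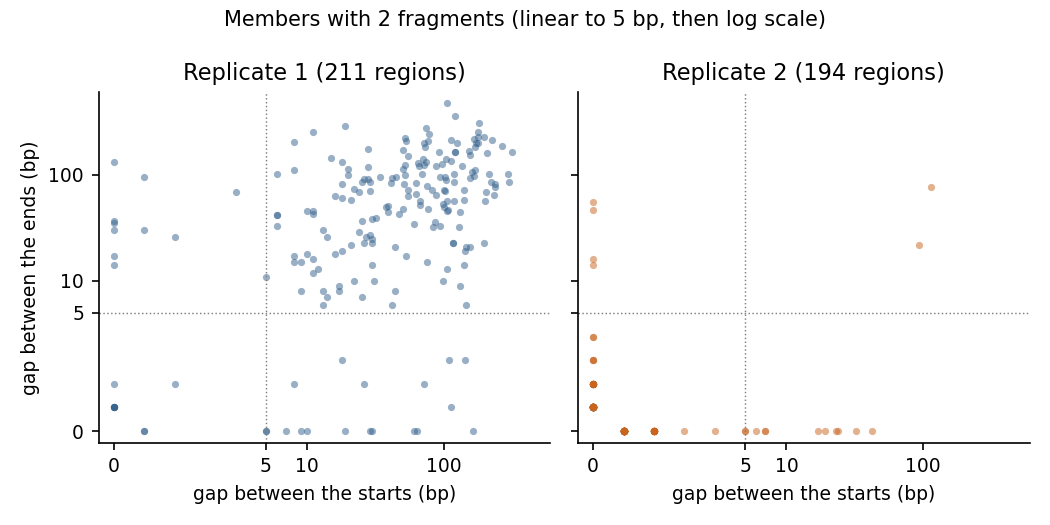
Gap between the starts (x axis, bp) and between the ends (y axis, bp) of the 2 fragments of each HP-only region with exactly 2, linear up to 5 bp and logarithmic beyond, with 1 point a region and dotted lines at 5 bp. Of the 194 replicate 2 regions 192 lie on an axis and 179 lie inside both lines, while the 211 replicate 1 regions spread over both axes.

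The regions with the most fragments showed the same feature. Of the 22 regions with 5 or more fragments, 18 came from replicate 2, and all 18 came from a single library and held 1 end fixed while the other end moved. The region with the most fragments lay in an intron of Bicc1 (chr10:71005698-71006118), with 17 fragments in the High library of replicate 2 and none in the other 5 positive HP libraries; 1 Negative HP fragment also lay there. Its free ends were spread over 144 bp. The region nearest to Ubxn2b, printed above, had 9 fragments in the High library of replicate 2, with 1 common start and ends that moved in 8 steps of 2 bp. The region within Prkcb, which encodes a protein kinase C that signals in blood cells, had 8 fragments in the Medium library of replicate 2, again with 1 start and 7 steps of 2 bp. The region in an exon of Cd33, a sialic acid-binding receptor of myeloid cells (chr7:43527619-43527950), had 7 fragments in the Low library of replicate 2, with 1 end fixed and 6 steps of 2 bp.

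Repeats of 1 pair of bases were found in many of these regions. Their place relative to the moving end was not measured over all regions. A run of 20 bp or more was present in 16 of the 22 regions with 5 or more fragments. Over all HP-only regions it was present in 36 of the 260 from replicate 2 (13.8%) and 5 of the 266 from replicate 1 (1.88%). With the replicates pooled, it was in 7.66% of stage-only regions for HP, 3.27% for HE2, 8.82% for HE1, 6.56% for HB and 6.38% for ES. Among different fragments it was found in 22.3% of replicate 2 fragments in HP-only regions, 4.86% of replicate 2 fragments in shared regions and 4.95% of all replicate 2 positive HP fragments. In replicate 1 the corresponding shares were 1.61%, 0.590% and 0.595%. Bases masked as repeats in the reference made up 27.4% to 34.2% of HP-only fragments in the 3 libraries of replicate 2, against 12.5% to 14.5% in shared regions. In replicate 1 they made up 10.6% to 13.8% against 7.31% to 7.71%. Whether the near-identical fragments of replicate 2 were separate integrations was not tested.

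A stricter count asked for 2 or more inserts that shared neither end within 5 bp. Of the 535 regions, 231 met it: 221 of the 266 from replicate 1, 2 of the 260 from replicate 2 and 8 of the 9 from both. The difference between replicates was found at every stage. Among stage-only regions from replicate 1 alone, 83.1% had 2 such inserts for HP, 87.6% for HE2, 84.9% for HE1, 84.2% for HB and 74.8% for ES. For replicate 2 the shares in the same order were 0.769%, 0% (0 of 50, which allows up to 6%), 6.83%, 8.79% and 3.45%. The HP value of replicate 2 rested on 2 regions.

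Among the 231 regions with separate inserts, 189 had 2 inserts, 33 had 3 and 9 had 4 or more. The 9 regions, named after their values were seen, all came from replicate 1. The region with the most gates and fragments (chr8:117471177-117471657) lay between genes 12152 bp downstream of the start of the microRNA gene Mir7078. It had 1 fragment in Low, 3 in Medium and 2 in High of replicate 1, which formed 5 inserts, and none in replicate 2. The region 2047 bp upstream of Zfp36, an RNA-binding protein that shortens the life of cytokine messages, had 2 fragments in Low and 3 in Medium. It also had 4 Negative fragments at ES and 1 at HP, and a positive fragment of another stage lay 95 bp away. The region in an intron of Hivep2, a zinc finger transcription factor (chr10:13967854-13968340), had 5 fragments in Medium and 1 in the Negative gate of HP. Its nearest positive fragment of another stage was 14394 bp away. The other 6 regions lay nearest to Sema6a, Niban2, Rbm38, Sec11c, Ryr1 and Mir7058, with 4 or 5 inserts each.

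**Figure D3:**
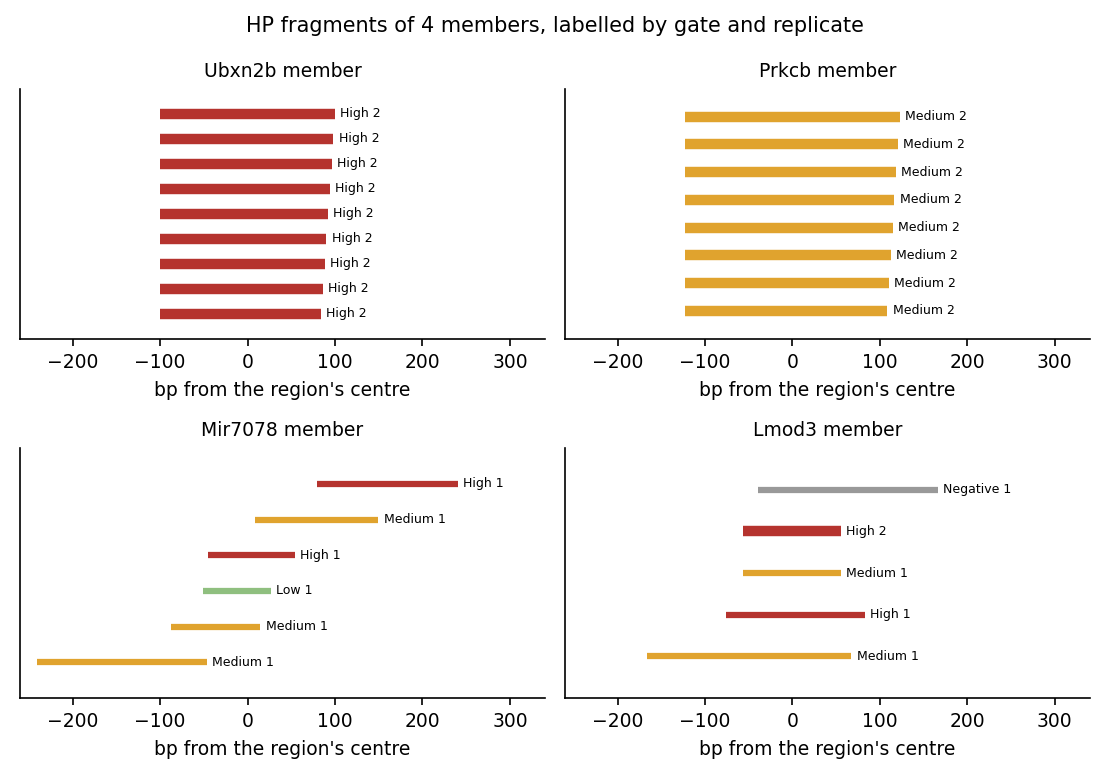
HP fragments of 4 HP-only regions in bp from the region's centre, each bar 1 fragment of 1 library, coloured and labelled by gate and replicate. The Ubxn2b and Prkcb regions show 9 and 8 bars from a single replicate 2 library with 1 common end, while the Mir7078 and Lmod3 regions show bars from several libraries with different ends, except for 1 Lmod3 fragment that was listed in both replicates.

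In total 365 regions were found in 1 gate, 162 in 2 gates and 8 in all 3. Of replicate 1 regions 158 (59.4%) were in 2 or 3 gates, against 5 (1.92%) of replicate 2 regions. The 8 regions seen in Low, Medium and High all came from replicate 1. In replicate 1, 36.9% of fragments in HP-only regions and 41.7% of other positive HP fragments were in the High gate. In replicate 2 these were 50.9% and 29.2%. The difference averaged 8.51 percentage points with an SD of 18.7 over 2 replicates that lay on opposite sides of 0, and no test was made, since 2 replicates cannot give an exact p below 0.5.

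The 9 regions with positive fragments of both replicates are the ones in which HP activity was seen in both sorts of HP. The Lmod3 member lay in an intron of Frmd4b (chr6:97353974-97354306), 101383 bp upstream of Lmod3, a muscle actin-filament gene. It had 2 Medium fragments and 1 High fragment in replicate 1 and 1 High fragment in replicate 2, with 1 Negative HP fragment. The High fragment of replicate 2 had the same start and end as a Medium fragment of replicate 1, so these were 3 different fragments. The Rnf19b member (chr4:129032668-129033032) had 1 Low and 1 Medium fragment in replicate 1 and 1 Medium fragment in replicate 2, and 2 Negative fragments at HE2. It lay between genes 25294 bp upstream of the start of Rnf19b, a ubiquitin ligase, and held 2 RUNX matches and 1 PU.1 match. The Neurl1b member, in an intron of this ubiquitin ligase of Notch ligands (chr17:26421705-26421978), had 2 Medium fragments in replicate 1 and 1 Low fragment in replicate 2.

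The other 6 had 1 fragment in each replicate. They lay nearest to Platr22, Nr2c2 (a nuclear receptor), Rybp (a Polycomb subunit), Plbd1, Tpst2 (a tyrosine sulfotransferase) and Gcnt2 (an enzyme of blood group I branching). The Tpst2 and Gcnt2 members were in the High gate of both replicates. In 5 of the 9 a positive fragment of another stage lay within 500 bp, and the median distance to one was 309 bp, against 3500.5 bp for replicate 1 regions and 10063 bp for replicate 2 regions. The share of stage-only regions with both replicates was 1.68% for HP, 0.577% for HE2, 2.28% for HE1, 5.02% for HB and 5.22% for ES.

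A separate reading used a replicate whose positive fragments were not counted in the choice. The regions themselves had been merged from all 40 libraries, so that replicate helped to set their extents. The rule applied to replicate 1 alone gave 297 HP-only regions, of which 31 had a positive fragment of any stage in replicate 2. In replicate 2 these regions held 9 HP fragments (0.173% of that stage's different positive fragments), 5 of HE2 (0.144%), 30 of HE1 (0.0862%), 11 of HB (0.0901%) and 13 of ES (0.144%). HP was highest, by 0.0567 percentage points over the mean of the other 4 stages, and its interval of 0.0909% to 0.328% covered the values of ES and HE2 (one-sided exact permutation test over the 5 stages, p = 0.2, the smallest it can give). With regions of 3 or more fragments, the difference was 0.0256 and another stage was higher than HP (exact permutation p = 0.4). The rule applied to replicate 2 alone gave 302 regions, of which 42 had a positive fragment in replicate 1. They held 0.416% of HP fragments (165), 0.447% at HB, 0.395% at HE1, 0.382% at ES and 0.336% at HE2. These fragments lay in 29 regions at HP, 28 at HB, 38 at HE1, 21 at ES and 35 at HE2. Fragments of 1 region are not independent, which the intervals leave out. By share of fragments HP was second highest (0.0258 percentage points above the mean of the others, exact permutation p = 0.4). With 1 value a stage, neither reading could have passed 0.05.

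**Figure D4:**
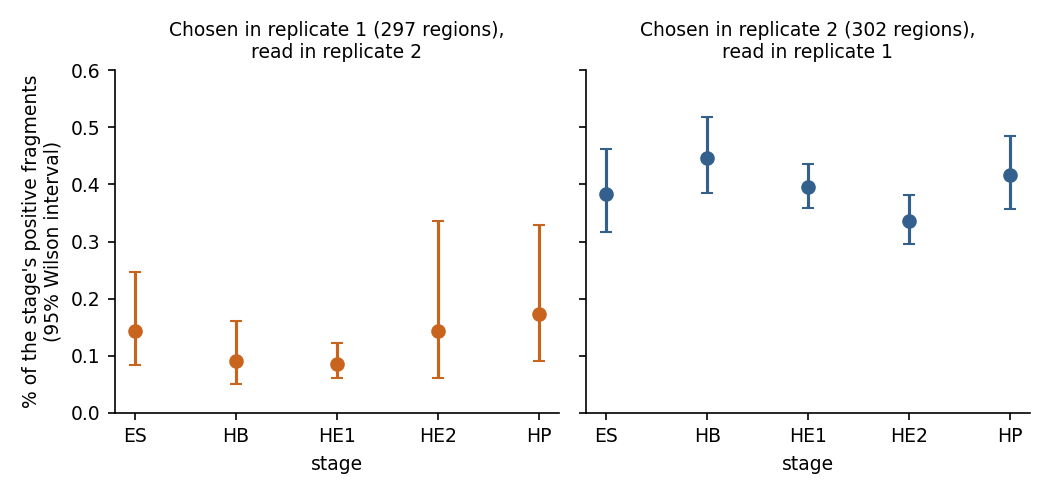
Percent of each stage's different positive fragments (y axis) that lay in regions chosen as HP-only in the other replicate, for 297 regions chosen in replicate 1 and 302 chosen in replicate 2; points are shares and bars are 95% Wilson intervals. HP, at 0.173% and 0.416%, lies within the span of intervals of the other stages in both panels. The intervals treat fragments of 1 region as independent.

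Fragments in the Negative gate show whether a region was carried by cells of a stage without YFP. In 501 of the 535 regions (93.6%) no fragment of any gate was recorded at another stage, so that their lack of activity there was not measured. Another 34 had a Negative fragment at ES, HB, HE1 or HE2, and 41 had one at HP itself. The share of stage-only regions with a Negative fragment at another stage was 6.36% for HP, 19.2% for HE2, 8.02% for HE1, 11.3% for HB and 8.32% for ES.

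The HP-only regions held 36 of 8458 Negative HP fragments in replicate 1 (0.426%) and 13 of 14951 in replicate 2 (0.0870%). In the Negative libraries of the other stages they held 0.00725% to 0.147%. The replicate 1 HP library lay above all 8 others and the replicate 2 HP library lay among them. The means were 0.256% ± 0.239 (SD, n = 2) at HP and 0.0988% ± 0.0466 (SD, n = 8) elsewhere, a difference of 0.158 percentage points that did not pass (two-sided exact permutation of the HP label over 10 Negative libraries, p = 0.133). The shares elsewhere are lowered by the rule where Negative and positive libraries of a sort share fragments, as 71.3% of the Negative fragments of HE1 replicate 1 did. That figure was 0% for HP replicate 1, 6.67% for HP replicate 2 and higher in every other sort. Of the different positive HP fragments, 0 of 39671 in replicate 1 stood in more than 1 gate, against 375 of 5208 in replicate 2. Without Negative fragments identical to any positive one, the difference was 0.186 percentage points (exact permutation p = 0.133). The rule also asked for positive HP fragments, which came from the same sorts as the Negative HP fragments. Negative fragments, like all others, had entered the merged regions. The HP label was therefore not freely exchangeable, and the test cannot decide whether HP differed.

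By position, 266 HP-only regions had their centre in an intron, 246 between genes and 23 in an exon. The median distance to a transcription start was 20577 bp; 1 region was within 1500 bp of one. The regions pointed to 522 different nearest genes, 12 of which had 2 or more HP-only regions. Rreb1, a zinc finger transcription factor, had 3, all from replicate 2.

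These measures, which the rule did not use, were compared within each of the 6 positive HP libraries between HP-only regions and the 8420 shared regions, which had 2 or more HP fragments and a positive fragment of another stage. GC content was lower in HP-only regions in 6 of 6 libraries. In replicate 1 it was 53.1% against 56.2% in Low, 52.5% against 56.2% in Medium and 53.4% against 57.0% in High. In replicate 2 it was 48.1% against 54.7%, 47.7% against 54.4% and 48.3% against 54.3%. The mean was 50.5% ± 2.74 (SD, n = 6) against 55.5% ± 1.17, a difference of -4.95 points (two-sided exact sign-flip permutation test, p = 0.03125, the smallest that 6 libraries allow). With the 231 regions of separate inserts alone, the difference was -2.06 points and did not pass (exact p = 0.0625), with 5 of 6 libraries lower. The 3 replicate 2 values of that comparison rested on 12 fragments, against 522 in replicate 1. The 6 libraries came from 2 sorts of HP, so they are not fully independent.

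Intron share and distance from a start did not pass. In introns lay 48.5% ± 7.02 of HP-only fragments a library against 44.1% ± 4.50 of shared ones (SD, n = 6, higher in 5 of 6, exact p = 0.406). Median distances of HP-only fragments were 14480.5 to 16185 bp in the replicate 1 libraries and 34324 to 38970 bp in those of replicate 2. Those of shared fragments were 15345.5 to 15761.5 bp and 17971 to 21684.5 bp. All 3 replicate 2 libraries were farther from a start in HP-only regions and those of replicate 1 lay on both sides. The mean difference was 0.13 on the log10 scale (exact sign-flip p = 0.188).

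Motifs of 15 factors were searched on both strands as RUNX (TGTGGT), PU.1 (GAGGAAGT), ETS (CCGGAAGT), GATA factors (AGATAA), C/EBP (TTGCNNAA), AP-1 (TGANTCA), KLF (CCACACCC), one E-box (CAGCTG), another E-box (CAGATG), TEAD (GGAATG), SOX (ACAANGG), OCT (ATGCAAAT), RBPJ (TGGGAA), STAT (TTCNNNGAA) and CTCF by its consensus. Matches of different motifs may overlap, and a match is a description of letters and not a bound site. By the exact sign-flip test, 0 of the 15 shares passed 0.05 after Benjamini-Hochberg adjustment over the 15 (the lowest adjusted value was p = 0.281), and 1, that of CTCF, passed without it. With 6 libraries at least 10 motifs would have had to reach the smallest p of 0.03125 together for any to pass, so the count of 0 says little of any single motif.

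The RUNX motif was in 31.0%, 22.0% and 16.6% of HP-only fragments in the Low, Medium and High libraries of replicate 1, against 15.1%, 13.8% and 12.3% of shared fragments. In replicate 2 it was in 12.3%, 23.7% and 14.5%, against 13.4%, 15.2% and 14.4%. All replicate 1 libraries were thus higher and those of replicate 2 were on both sides (mean difference 6.03 points ± 6.30 (SD, n = 6), exact p = 0.0938, adjusted p = 0.281). These shares depend on fragment length, whose mean was greater in HP-only regions in 2 of 6 libraries. It differed most in Medium of replicate 2, at 280 bp against 226 bp. With only the central 100 bp of each fragment searched, the RUNX difference was 2.82 points (higher in 4 of 6, exact sign-flip p = 0.219). Counted by region, 81 of 275 HP-only regions of replicate 1 held a RUNX match in a replicate 1 fragment (29.5%), against 27.2% of shared regions, which have more fragments each.

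The PU.1 motif was in 5.75%, 4.61% and 6.55% of HP-only fragments in Low, Medium and High of replicate 1, against 3.38%, 2.86% and 2.62% of shared fragments. In replicate 2 the shares were 7.41%, 1.56% and 1.99% against 1.77%, 1.40% and 2.02% (mean difference 2.30 points ± 2.20 (SD, n = 6), exact p = 0.0625, adjusted p = 0.281). The HP-only shares of replicate 2 rested on 17 different fragments in 7 of 269 regions. The C/EBP motif was higher in 5 of 6 libraries, by 2.22 points ± 2.81 (SD, n = 6, exact p = 0.0938, adjusted p = 0.281). With separate inserts alone, the PU.1 difference was 0.59 points (higher in 3 of 6) and the C/EBP difference 9.48 points, where the replicate 2 libraries held 12 fragments in all. With the central 100 bp searched, the PU.1 difference was 1.37 points (higher in 3 of 6) and the C/EBP difference 2.04 points (5 of 6). The CTCF motif was lower in 6 of 6, at 2.44% ± 2.47 against 4.86% ± 1.09 (SD, n = 6, exact p = 0.03125, adjusted p = 0.281). A lower CTCF share was not particular to HP. It was also lower in stage-only regions than in all positive fragments in every sort of the other stages. The ETS motif was higher in 1 of 6, at 0.190% ± 0.465 against 0.670% ± 0.293 (SD, n = 6, exact sign-flip p = 0.0625, adjusted p = 0.281). It was in 0 of the 620 different HP-only fragments of replicate 1. With separate inserts alone it was higher in 0 of 6 (exact sign-flip p = 0.03125, adjusted p = 0.156). The replicate 2 libraries then held 12 fragments in all, and 0.596% of different shared fragments of replicate 2 had the motif. Shares of 0 were thus nearly fixed in those libraries, and this p says little. GATA and SOX motifs were higher in 3 of 6 libraries each.

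**Figure D5:**
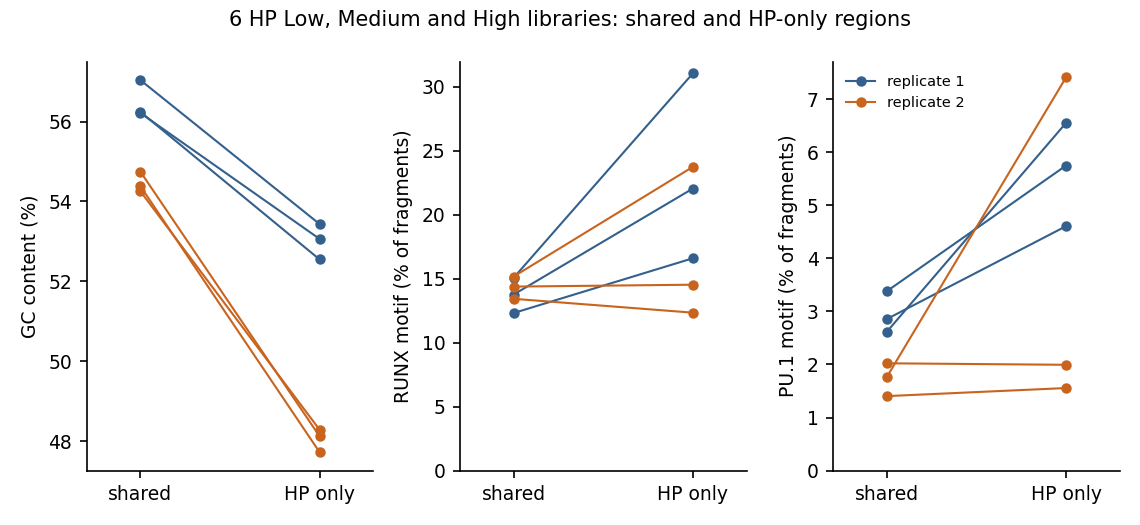
GC content in percent and the share of fragments with a RUNX or PU.1 motif in percent, in shared and HP-only regions of the 6 positive HP libraries; each line joins the 2 values of 1 library, coloured by replicate, and the GC axis does not start at 0. GC content falls in all 6 lines, while the RUNX and PU.1 lines of replicate 1 rise and those of replicate 2 go both ways.

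Genes of 6 lists were the nearest to 12 HP-only regions, and for each list the intervals of the share among HP-only regions and among shared regions overlapped. Blood transcription factor genes were nearest to 3 HP-only regions (0.561%, Wilson interval 0.191% to 1.64%) and to 59 shared regions (0.701%). These were 2 regions at Fli1 and 1 at Erg, ETS factors of blood and endothelium. The Fli1 region in an intron, 66105 bp downstream of the start, had 3 fragments in the High library of replicate 2. The region 42646 bp upstream of Fli1 had 2 fragments in its Low library, and the region 36472 bp upstream of Erg had 2 in its High library. All 3 regions rested on 1 insert each when fragments sharing an end within 5 bp were joined, and all came from replicate 2.

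Blood receptor genes were nearest to 1 HP-only region (Cd33, 0.187%, against 0.143% of shared regions) and signalling genes to 2 (Prkcb and Themis2, a signalling adaptor of immune cells, 0.374% against 0.321%). All of these came from replicate 2 and rested on 1 insert each. Effector genes were nearest to 1, in an intron of Vwf, the clotting factor of platelets and endothelium, with 1 Low and 1 Medium fragment of replicate 1 (0.187% against 0.107%). Endothelial genes were nearest to 4 (0.748% against 0.594%). The region in an intron of the receptor gene Notch1 had 1 Medium and 1 High fragment of replicate 1, and a positive fragment of another stage lay 29 bp from it. The region upstream of the matrix gene Sparc had 1 Low and 1 Medium fragment of replicate 1. Those at Gja5, a connexin of arteries, and Robo4, an endothelial receptor, had 2 High fragments of replicate 2 each, which shared a start and formed 1 insert. A pluripotency gene, Klf5, was nearest to 1 (0.187% against 0.226%), with 2 Medium fragments of replicate 1.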

How the data were processed

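Fragments recovered from sorted reporter cells were analysed in 40 libraries (5 stages, 4 YFP gates, 2 replicates), each a list of coordinates deposited by the authors in mm10. According to the study's methods, inserts were amplified by PCR with a number of cycles that depended on the DNA obtained, and sequenced as pairs. The authors trimmed reads with Trim Galore, aligned them with bowtie2, kept proper pairs of high mapping quality, took the span of a pair as the fragment and removed duplicates; SAMtools, bedtools and HOMER are named in the submitters' processing notes. No tool version is given for the reporter fragments in the sources used here. It is not stated which of the described filters on background, open chromatin (which included a peak at the matching stage) and promoters these lists had passed. The lists hold no read counts, so a fragment counts once in a library and PCR without molecular identifiers can give several fragments from 1 molecule; intervals (Wilson, 95%) cover counting error only.

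Groups came from sample titles. Sorts share replicate numbers, but neither the titles nor the methods tie a number to 1 transfected pool across stages. Fragments were merged at an overlap of 1 bp with pandas 2.3.3, and sequence and annotation came from RefSeq on GRCm38 (pysam 0.24.0). Of 354627 different fragments, 23 on scaffolds had no sequence or gene. A region was named by the nearest curated RefSeq start to its centre. Named were the 20 regions with the most fragments (some by counts only), those with both replicates, and those nearest to genes of 6 lists. Regions with 4 or more separate inserts and the gene with the most regions were added after their values were seen; printed sequences were picked among them after their values were seen. Tests were exact permutations over libraries or stages and were tested on made-up data. The members, lists and tests were chosen with earlier results of these data known. Alternatives changed the merging, the threshold, the gates, the fragments counted and the replicates used.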

Additional observations from a re-analysis of the deposited data

How the results depend on the processing

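The number of HP-only regions was 535 and depended on how fragments were counted. It was 312 when fragments with both ends within 5 bp were collapsed, 124 with 3 or more fragments, 297 to 302 with either replicate left out, and 231 when 2 inserts sharing neither end were asked for, an alternative chosen after seeing the data. It was 556 with merging at 50 bp, 532 with Medium and High alone and 455 without regions within 500 bp of a positive fragment of another stage (also chosen after seeing the data). Of the 532 regions, 446 were among the 535, since leaving out Low also left out the Low libraries of the other stages. Permuting the HP label within replicates (replicate block) left the Negative gate difference at 0.158 percentage points (exact p = 0.16). Leaving out a replicate gave -0.0288 to 0.344, the lower value without replicate 1. With 3 or more fragments, the reading of regions chosen in replicate 1 fell to 0.0256 percentage points (exact p = 0.4) and that of regions chosen in replicate 2 turned to -0.00238. The GC difference was -6.41 to -3.48 points with either replicate left out, where 3 libraries cannot pass, -2.80 against all other HP regions and -2.06 with separate inserts (exact p = 0.0625). The distance difference on the log10 scale was -0.0117 to 0.271 with a replicate left out and -0.0567 with separate inserts. The High gate difference was -4.75 to 21.8 percentage points with a replicate left out. No motif passed adjustment under any alternative run, which was nearly fixed by the number of libraries (with a replicate left out no p can fall below 0.25). At an unadjusted p under 0.05 the exact test called 0 to 3 of 15. The 3 were ETS, OCT and CTCF with separate inserts, where replicate 2 held 12 fragments in all and shares of 0 were likely. With separate inserts the PU.1 difference was 0.59 points and the C/EBP difference 9.48. In that setting replicate 2 held 12 fragments, 0 with a PU.1 and 3 with a C/EBP match. In replicate 1 the PU.1 motif was in 5.36% of separate-insert fragments, against 5.48% of all HP-only fragments. The C/EBP motif was in 8.05% against 7.58%. At the depth of these lists, 501 regions had no fragment of any gate at another stage; the reason was not tested.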

Other observations

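Regions found at a single stage were also compared between stages, a comparison chosen after seeing the data. The PU.1 motif was in 5.48% and 2.47% of different HP-only fragments in replicates 1 and 2, and in 1.17% to 4.59% of fragments of the stage-only regions of the other 8 sorts. The replicate 1 value at HP was the highest of the 10 and the replicate 2 value lay among the others (3.98% ± 2.13 (SD, n = 2) against 2.33% ± 1.02 (SD, n = 8), two-sided exact permutation p = 0.0667, adjusted over 9 measures p = 0.6). The next highest was HE2 replicate 1. The RUNX motif was in 21.3% and 17.8% of HP-only fragments, and its share was highest in HE1 replicate 2 at 22.7%, followed by HE2 replicate 1 at 22.0% (exact permutation p = 0.467, adjusted p = 0.833). The CTCF motif was in 4.68% and 0.582% of HP-only fragments in replicates 1 and 2, and in 0% to 3.47% for the other 8 sorts. The means were 2.63% ± 2.90 (SD, n = 2) and 1.38% ± 1.21 (SD, n = 8, exact permutation p = 0.378, adjusted p = 0.833). GC content of HP-only fragments was 50.5% ± 3.47 (SD, n = 2), against 50.5% ± 2.23 (SD, n = 8) in stage-only regions of the other sorts (exact permutation p = 0.978).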
